A study of Homo sapiens with 6 samples.

Results

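The 39 genes described here encode receptor tyrosine kinases outside the ERBB family. They were selected by gene symbol. They comprise 4 FGF receptors, 8 Eph receptors, 2 receptors of the MET family, 2 insulin and IGF receptors, 4 receptors of the PDGF receptor family, 3 VEGF receptors, 3 TAM receptors, 2 DDR collagen receptors, 2 TIE receptors, 4 Wnt-binding receptors, RET, LTK, ROS1, STYK1 and LMTK2. Of the 30327 genes in the count table, 38 were members, and TEK was not analysed here. FPKM were listed for 35 members, without RET, FLT1, TIE1 and TEK, and 25 members had enough reads for a comparison between the groups.

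The RNA came from SK-BR-3, an established human breast cancer cell line that overexpresses HER2. Poly(A) RNA was sequenced in 3 libraries of the control group (si_NC, a nontargeting siRNA) and 3 libraries described as si_GRB2. The group name si_GRB2 stands in the sample descriptions, whereas the titles, the genotype field and the design text name GRB2 overexpression. The level of GRB2, the adaptor protein that links activated receptors to RAS, was therefore examined first. GRB2 was at 124, 129.5 and 126 CPM (counts scaled to library size with TMM factors) in the si_NC libraries and at 27.8, 28.1 and 29.6 CPM in the libraries labelled si_GRB2. All 3 libraries labelled si_GRB2 thus had less GRB2 mRNA than any si_NC library, and its log2 fold change by edgeR's quasi-likelihood test was −2.15 (standard error, SE, 0.04, adjusted p = 3.87e-15). Every direction given here is that of the libraries labelled si_GRB2 against si_NC. The methods of the study name an siRNA against GRB2 and the nontargeting control, but their list of RNA-seq groups names GRB2 overexpression. They give a collection time for RT-PCR and Western blot but none for the sequenced RNA. No source states that the libraries of a group came from separate cultures, so the p values measure the spread between these libraries, which may be technical.

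Counted reads came to 24810378 to 28532480 per library, and 3 reads equal 0.107 to 0.119 CPM. All 9 markers of HER2-positive luminal epithelium were measured. Their summed level, mainly KRT8, KRT18, KRT19, ERBB2 and KRT7, was 19796 to 20258 CPM in si_NC and 16604 to 17278 CPM in si_GRB2. Of the 9, 8 had an edgeR adjusted p under 0.05, beside 30.6% of all genes tested. ERBB2 and FOXA1 were higher in si_GRB2 (log2 fold changes 0.24 and 0.36), and 6 were lower. Several defining markers of other cell types were at or near 0, with 2 reads of PTPRC (leukocytes), 3 of PECAM1 and 2 of CLDN5 (endothelium), and 2 of DCN and 1 of LUM (fibroblasts) over the 6 libraries. The summed fibroblast markers, at 648 to 660 CPM in si_NC and 481 to 509 CPM in si_GRB2, were almost entirely FBLN1, and 6 of the 8 were under 1 CPM in every library or not listed. The endothelial markers summed to 49.3 to 53.0 and 37.8 to 42.0 CPM, mainly CDH5 and ESAM, and the basal markers to 20.4 to 21.8 and 12.2 to 12.4 CPM, mainly KRT5. The part of these differences in the results for the receptors was not tested.

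Receptor tyrosine kinases cross the plasma membrane, bind a ligand outside the cell and phosphorylate themselves and other proteins on tyrosine inside it. The SH2 domain of GRB2 binds phosphotyrosine on many activated receptors or on their docking proteins, and its SH3 domains bring SOS to RAS. In HER2-amplified breast cancer cells, receptors such as MET, IGF1R, the FGF receptors and EPHA2 are known for sustaining growth when HER2 is inhibited.

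In si_NC, 15 of the 39 receptors were expressed, taken as a mean of at least 1 FPKM, the authors' length-normalized unit. Levels of different genes are compared here in FPKM, but the sources used here do not give the gene lengths behind it. The order of the genes depends on those lengths. FGFR2, for example, had more reads than EPHA1 in si_NC (means of 51.3 and 36.6 CPM) but a lower FPKM (2.19 and 6.25). DDR1, a receptor for fibrillar collagen, was the most abundant, at 38.3, 38.9 and 42.6 FPKM in si_NC and 36.3, 38.8 and 37.0 FPKM in si_GRB2. The member next in order, EPHB3, was at 10.2 ± 0.153 FPKM (SD, n = 3), far below DDR1 in every library. CSF1R, the receptor for CSF1 and IL34, followed at 9.77 ± 0.431 FPKM (SD, n = 3), and its range of 9.39 to 10.2 FPKM overlapped that of EPHB3. These 3 genes stood above a group of 9 receptors whose si_NC means lay between 3.59 FPKM (MET) and 6.25 FPKM (EPHA1). In falling order the group held EPHA1, EPHA2, EPHB4, EPHB6, LMTK2, MST1R, RYK, TYRO3 and MET. The si_NC ranges of neighbours in this order overlapped, except between EPHB4 and EPHB6 and between TYRO3 and MET. FGFR2, FGFR4 and STYK1 completed the expressed receptors, at 2.19 ± 0.0265, 1.497 ± 0.0493 and 1.28 ± 0.0557 FPKM (SD, n = 3). With a limit of 0.5 FPKM, 18 receptors counted as expressed, and with a limit of 2 FPKM 13 did.

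**Figure D1:**
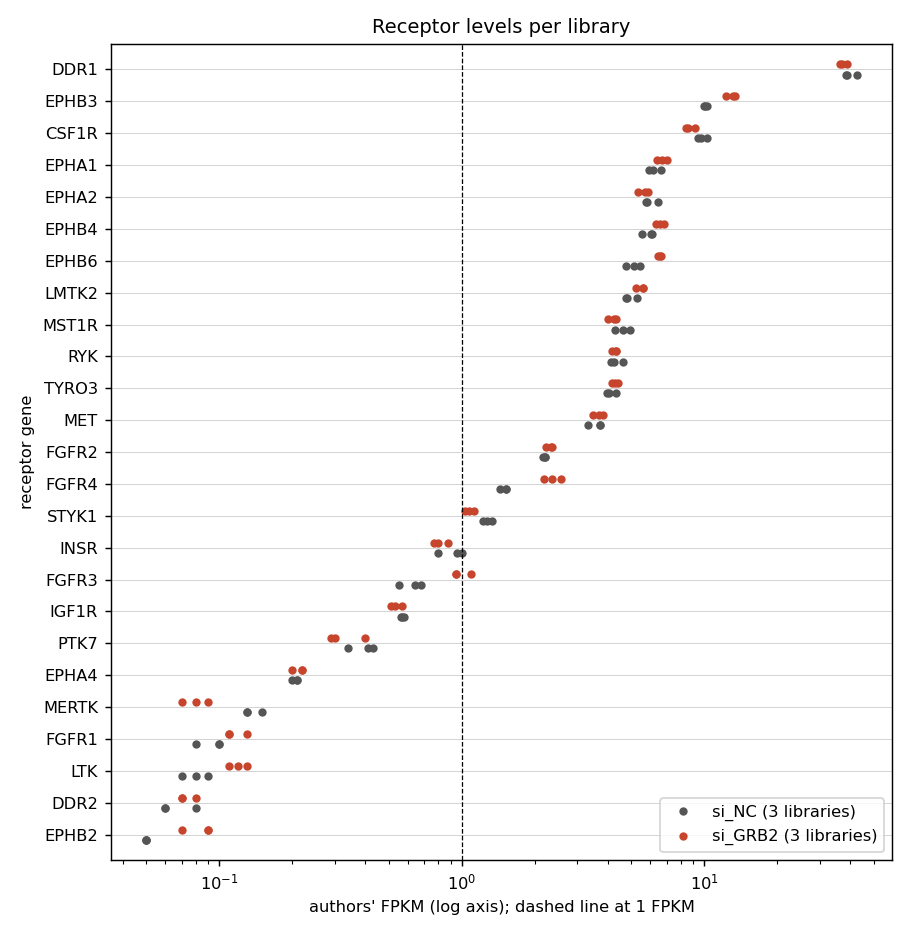
Levels of the 25 receptors with enough reads to test, in the authors' FPKM on a log axis, with 1 point per library (si_NC grey, si_GRB2 red) and the limit of 1 FPKM as a dashed line. DDR1 stands apart at 36.3 to 42.6 FPKM, 15 receptors have an si_NC mean at or right of the line, and EPHB2 is lowest at 0.05 FPKM in each si_NC library.

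A further 6 receptors had si_NC means between 0.1 and 1 FPKM, namely INSR, FGFR3, IGF1R, PTK7, EPHA4 and MERTK. Below 0.1 FPKM, 14 receptors were listed. Of those, FGFR1, LTK, DDR2 and EPHB2 kept enough reads to be tested, with 68 to 349 reads over the 6 libraries. The other listed receptors, 13 in all with those that had no FPKM, were not tested. PDGFRB, a receptor for PDGF-B and PDGF-D, had 36 reads over the 6 libraries, and FLT4, the receptor for VEGF-C, had 13. The remaining ones were KIT (1 read), ROR2 (1), PDGFRA (2), TIE1 (2), AXL, FLT1, KDR, RET and ROR1 (3 each), ROS1 (6) and EPHA7 (9). No more than 9 reads of any of these 13 genes were counted in a library. SK-BR-3 cells in these libraries thus held mRNA of Eph, DDR, MET, FGF, TYRO3 and CSF1 receptors. The VEGF receptors, the PDGF receptors, KIT, RET and AXL each had 9 reads or fewer per gene in every library.

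In the comparison of si_GRB2 with si_NC, 10 of the 25 tested receptors passed the test (adjusted p under 0.05), beside 30.6% of the 15801 genes tested. Of these, 5 were up-regulated, where 15.2% of all tested genes were higher, and 5 were down-regulated, where 15.5% were lower. The up-regulated receptors were EPHB2, FGFR3, FGFR4, EPHB6 and EPHB3, and the down-regulated ones were MERTK, CSF1R, MST1R, DDR1 and EPHA2. In CPM, the values of the groups did not overlap for 15 of the 25 receptors, against 42.3% of all tested genes. Of the down-regulated receptors, DDR1, EPHA2 and MST1R had groups that overlapped in FPKM. The median log2 fold change of the 25 was 0.02, and that of all tested genes was 0.0019. The median size of the change, regardless of sign, was 0.21 among the receptors and 0.14 among all tested genes. A fold change above 1.5 together with an adjusted p under 0.01 was reached by FGFR3 and FGFR4, both up-regulated. The share of all tested genes past both limits was 2.52%, with 0.829% higher and 1.69% lower. No receptor fell past both limits in edgeR or DESeq2, while MERTK did so at an unadjusted p under 0.05 in edgeR. Limma on log2(FPKM + 1) called 3 receptors (EPHB3, EPHB6 and FGFR4, all higher), and with a pseudocount of 0.1 it called 4, all higher. The split of calls over all genes moved the same way, from 2396 higher and 2442 lower in edgeR to 834 higher and 566 lower in limma on log2(FPKM + 1).

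**Figure D2:**
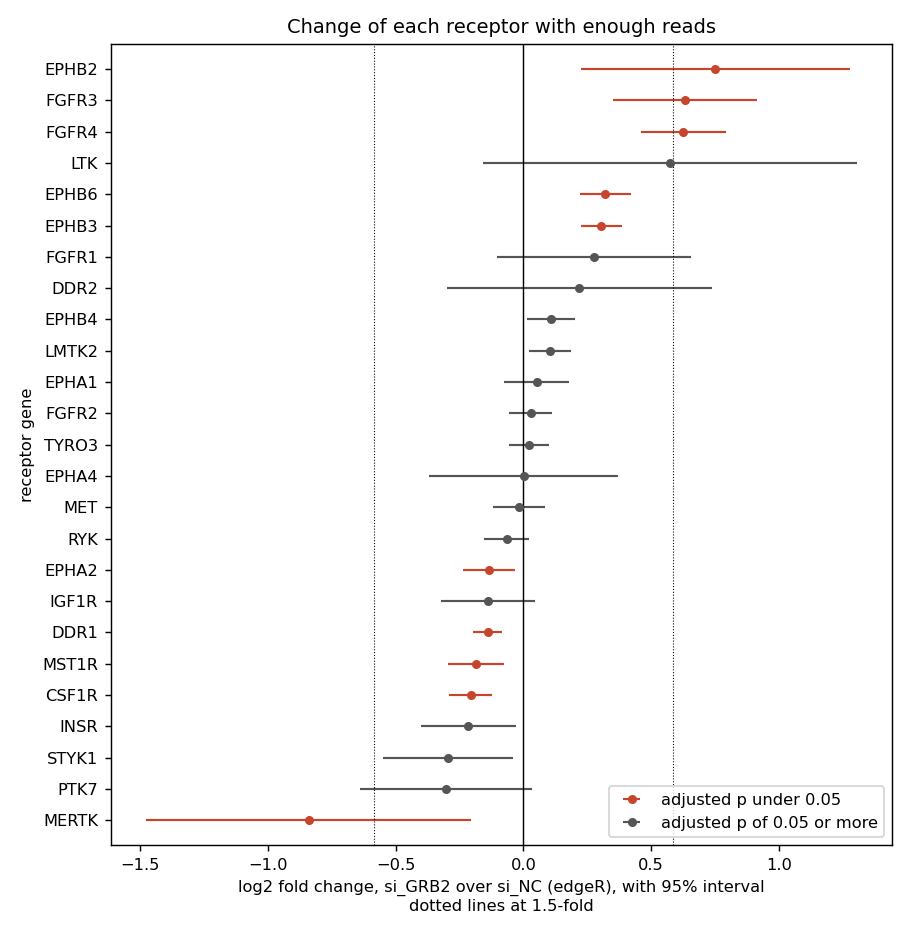
Log2 fold changes of the 25 tested receptors with 95% intervals (edgeR), si_GRB2 over si_NC, red where the adjusted p was under 0.05, with dotted lines at 1.5-fold. The 10 red receptors run from EPHB2 at 0.75 to MERTK at −0.84, and the intervals of MERTK and EPHB2, the receptors with the fewest reads among them, are the widest of the 10.

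The FGF receptors bind fibroblast growth factors together with heparan sulfate or klotho co-receptors and signal to RAS through the docking protein FRS2, which recruits GRB2. All 4 were measured, and FGFR4 and FGFR3 were up-regulated while FGFR2 and FGFR1 did not pass the test. FGFR4 (ENSG00000160867.15, chromosome 5 of GRCh38, plus strand, from 177086905 to 177098144) was at 8.88, 9.18 and 8.81 CPM in si_NC and at 13.1, 14.7 and 13.6 CPM in si_GRB2. Every si_GRB2 library lay above every si_NC library, by far more than the spread within groups. The log2 fold change was 0.63 (SE 0.08, 95% interval 0.46 to 0.79, edgeR adjusted p = 1.53e-05). FGFR3 (ENSG00000068078.20, chromosome 4, plus strand, from 1793293 to 1808872) had fewer reads, 85 to 160 per library. It was at 4.21, 3.34 and 3.71 CPM in si_NC and at 5.76, 5.43 and 6.32 CPM in si_GRB2. The groups did not overlap, and the log2 fold change was 0.63 (SE 0.13, 95% interval 0.35 to 0.92, edgeR adjusted p = 0.0016). Without si_NC replicate 2 or without si_GRB2 replicate 3, FGFR3 kept its direction but no longer passed both limits (log2 fold changes 0.55 and 0.57). Without si_GRB2 replicate 2, FGFR4 fell just short of the 1.5-fold limit (0.58).

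FGFR2 was steady, at 52.1, 52.3 and 49.6 CPM in si_NC and 51.98, 52.002 and 53.2 CPM in si_GRB2. Its groups overlapped, and the 95% interval of its log2 fold change, −0.06 to 0.11, left out changes of the size seen for FGFR4. FGFR1 was at 1.65 to 2.17 CPM in si_NC and 2.27 to 2.65 CPM in si_GRB2, which did not overlap, with a log2 fold change of 0.28 (95% interval −0.10 to 0.66, edgeR adjusted p = 0.279). In FPKM, the sum of the 4 receptors was 4.38, 4.36 and 4.47 in si_NC and 5.47, 5.98 and 5.94 in si_GRB2. FGFR2 made up 49.7% ± 0.822 of that sum in si_NC and 39.8% ± 0.731 in si_GRB2 (SD, n = 3 each). The share of FGFR4 went from 34.0% ± 1.01 to 41.0% ± 1.89 (SD, n = 3 each). Its FPKM, 0.683 times that of FGFR2 in si_NC, was 1.03 times that of FGFR2 in si_GRB2. FGFR2 kept far more reads, with means of 51.3 CPM against 8.96 CPM for FGFR4 in si_NC. In si_GRB2 the means were 52.4 and 13.8 CPM. These shares and ratios therefore depend on the gene lengths behind the authors' FPKM, which the sources used here do not give.

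The sequences upstream of FGFR3 and FGFR4 are shown because these are the receptors past both limits. Each is the 250 bases before a transcript start in RefSeq (GRCh38.p14), on the gene's strand, with capitals at GC boxes (GGGCGG on either strand, the site class of SP1). FGFR3 has 1 annotated start (chr4:1793043-1793292, plus strand), and its window holds 8 GC boxes, with 86.8% G or C and 40 CpG. FGFR4 has an upstream start (chr5:177086665-177086914, plus strand) with 7 GC boxes and a downstream start (chr5:177089300-177089549, plus strand) with no match. Counts per gene do not tell which start was used.
FGFR3: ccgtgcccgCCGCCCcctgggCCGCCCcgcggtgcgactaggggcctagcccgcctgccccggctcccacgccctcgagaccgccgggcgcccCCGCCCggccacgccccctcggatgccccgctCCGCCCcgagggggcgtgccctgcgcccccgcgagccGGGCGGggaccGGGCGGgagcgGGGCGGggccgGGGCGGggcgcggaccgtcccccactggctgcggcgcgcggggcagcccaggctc
FGFR4, upstream start: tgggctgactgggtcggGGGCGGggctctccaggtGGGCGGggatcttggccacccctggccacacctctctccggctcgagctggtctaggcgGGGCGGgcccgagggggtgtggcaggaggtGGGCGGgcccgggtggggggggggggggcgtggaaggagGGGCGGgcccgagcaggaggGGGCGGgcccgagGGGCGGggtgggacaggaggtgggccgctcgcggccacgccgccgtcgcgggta
FGFR4, downstream start: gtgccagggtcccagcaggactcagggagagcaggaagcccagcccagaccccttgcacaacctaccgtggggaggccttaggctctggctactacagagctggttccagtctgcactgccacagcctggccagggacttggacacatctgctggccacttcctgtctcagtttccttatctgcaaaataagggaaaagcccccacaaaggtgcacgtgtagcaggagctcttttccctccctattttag

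Eph receptors bind membrane-anchored ephrins on neighbouring cells, and EphB6 lacks kinase activity. Of the 7 tested Eph receptors, 4 passed the test, with EPHB2, EPHB3 and EPHB6 higher and EPHA2 lower, beside 30.6% of all tested genes. EPHB3 (ENSG00000182580.3, chromosome 3, plus strand, from 184561785 to 184582408) was at 58.9, 57.1 and 56.0 CPM in si_NC and at 69.5, 71.8 and 71.1 CPM in si_GRB2. The groups were well apart, and the log2 fold change was 0.31 (SE 0.04, edgeR adjusted p = 1.36e-05). EPHB6 (ENSG00000106123.12, chromosome 7, plus strand, from 142855061 to 142871094) was at 35.2, 31.7 and 34.6 CPM in si_NC and at 42.9, 41.6 and 42.4 CPM in si_GRB2. No values overlapped, and the log2 fold change was 0.32 (SE 0.05, edgeR adjusted p = 7.72e-05). EPHB3, EPHB6 and FGFR4 were the 3 receptors called in the same direction in each of the 14 alternative fits. EPHB2, near the detection limit with 162 reads in all, was at 0.856, 0.746 and 0.677 CPM in si_NC and at 1.43, 1.38 and 1.03 CPM in si_GRB2. Its log2 fold change of 0.75 (95% interval 0.22 to 1.28, edgeR adjusted p = 0.0301) was no longer called in 7 of 13 alternative fits, DESeq2 among them.

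EPHB4, the receptor for ephrin-B2, was at 49.99, 45.0 and 47.1 CPM in si_NC and at 50.7, 51.8 and 50.8 CPM in si_GRB2. The groups did not overlap, but the log2 fold change of 0.11 (95% interval 0.02 to 0.20) had an edgeR adjusted p of 0.0726. Without si_NC replicate 1, EPHB4 passed the test with a log2 fold change of 0.14. SLC12A9 lies opposite EPHB4 and had 172% as many reads, with a log2 fold change of 0.01. Among the A class, EPHA2 (ENSG00000142627.13, chromosome 1, minus strand, from 16124337 to 16156069) was at 30.9, 30.1 and 31.9 CPM in si_NC and at 27.5, 28.8 and 28.3 CPM in si_GRB2. The groups lay close together without overlap, with a log2 fold change of −0.13 (SE 0.05, edgeR adjusted p = 0.0417), which was no longer called in 11 of 14 alternative fits, each left-out library except si_NC replicate 2 included. EPHA1 was at 39.9, 35.1 and 34.8 CPM in si_NC and at 41.0, 37.3 and 35.8 CPM in si_GRB2, with overlapping groups and a 95% interval of −0.07 to 0.18. ZYX, which overlaps EPHA1 on the opposite strand, had 585% as many reads and a log2 fold change of −0.38. The libraries were strand-specific (dUTP), but the sources used here do not say whether the counting used strand, so the part of opposite genes in the counts of EPHA1 and EPHB4 was not tested. EPHA4 was at 1.82 to 2.03 CPM over all 6 libraries, with a log2 fold change of 0.0011 (95% interval −0.37 to 0.37).

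Summed over the class, the EphB receptors were at 21.4, 20.4 and 21.9 FPKM in si_NC and at 25.2, 26.9 and 26.5 FPKM in si_GRB2. The EphA receptors were at 12.7, 11.9 and 12.8 FPKM in si_NC and at 12.5, 12.8 and 12.3 FPKM in si_GRB2, which overlapped. The ratio of EphB to EphA FPKM within a library was 1.70 ± 0.0126 in si_NC and 2.09 ± 0.0741 in si_GRB2 (SD, n = 3 each), with every si_GRB2 library above every si_NC library.

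**Figure D3:**
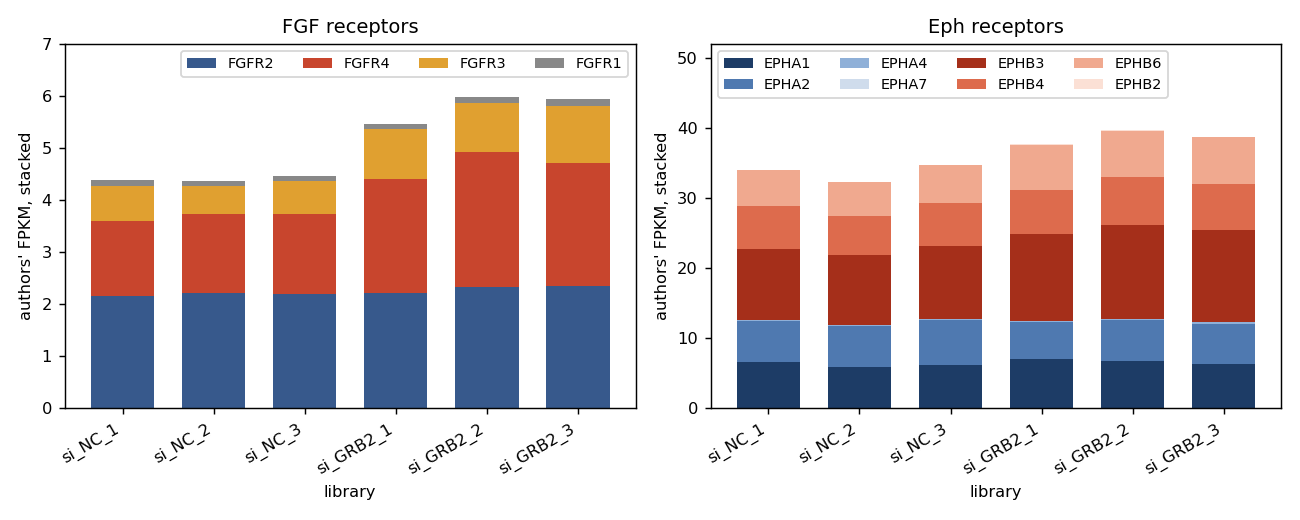
Stacked FPKM of the FGF receptors (left) and the Eph receptors (right) in each of the 6 libraries, each colour 1 gene. The FGF receptor total is 4.36 to 4.47 in si_NC and 5.47 to 5.98 in si_GRB2 while the FGFR2 segment stays between 2.16 and 2.36, and the EphB segments (red shades) reach 25.2 to 26.9 in si_GRB2 above EphA segments (blue shades) that overlap between groups.

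EPHB3 and EPHB6, the EphB receptors that rose in every fit, are shown with the 250 bases before their RefSeq starts (GRCh38.p14), since both rose. The window of EPHB3 (chr3:184561535-184561784, plus strand) holds 3 GC boxes in capitals, with 70% G or C and 21 CpG. The window of EPHB6 (chr7:142862506-142862755, plus strand) holds 1 GC box, with 48% G or C and 3 CpG. It lies inside the gene as positioned above, which begins upstream at 142855061, whereas the window of EPHB3 ends where its gene begins. Whether the windows differ in composition because of these positions was not tested.
EPHB3: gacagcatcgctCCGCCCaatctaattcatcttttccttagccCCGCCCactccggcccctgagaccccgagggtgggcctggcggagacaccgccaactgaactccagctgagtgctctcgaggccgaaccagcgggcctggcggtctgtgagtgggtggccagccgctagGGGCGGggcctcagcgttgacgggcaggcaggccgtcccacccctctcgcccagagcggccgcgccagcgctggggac
EPHB6: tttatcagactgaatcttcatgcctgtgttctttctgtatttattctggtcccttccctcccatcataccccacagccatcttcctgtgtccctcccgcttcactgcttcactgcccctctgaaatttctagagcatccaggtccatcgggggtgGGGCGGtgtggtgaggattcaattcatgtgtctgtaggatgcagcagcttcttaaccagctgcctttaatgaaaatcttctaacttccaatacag

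DDR1 and DDR2 are receptors for collagen. DDR1 (ENSG00000204580.14, chromosome 6, plus strand, from 30876421 to 30900156) was at 448, 446 and 465 CPM in si_NC and at 412.5, 418 and 404 CPM in si_GRB2. In CPM, all si_GRB2 libraries lay below all si_NC libraries, and the log2 fold change was −0.14 (SE 0.03, 95% interval −0.20 to −0.08, edgeR adjusted p = 7.28e-04). In FPKM the groups overlapped, with si_GRB2 replicate 2 at 38.8 and si_NC replicate 1 at 38.3. DDR1 made up 35.4% ± 0.646 of the summed FPKM of all members in si_NC and 32.3% ± 0.183 in si_GRB2 (SD, n = 3 each). The sum itself was 113 ± 4.88 FPKM in si_NC and 116 ± 3.65 FPKM in si_GRB2 (SD, n = 3 each), a difference smaller than the spread between libraries. DDR2 was at 0.785 to 0.998 CPM in si_NC and at 0.947 to 1.15 CPM in si_GRB2, with overlapping groups and a log2 fold change of 0.22 (95% interval −0.30 to 0.74).

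CSF1R, a receptor best known from macrophages, was the down-regulated receptor next in abundance. Its gene (ENSG00000182578.14, chromosome 5, minus strand, from 150053291 to 150113372) is 467 bases from PDGFRB. CSF1R was at 62.1, 62.8 and 63.1 CPM in si_NC and at 55.1, 55.9 and 51.9 CPM in si_GRB2. The groups did not overlap, and the log2 fold change was −0.21 (SE 0.04, 95% interval −0.29 to −0.12, edgeR adjusted p = 8.87e-04). The 7 leukocyte markers summed to 4.60 to 5.53 CPM in si_NC and 4.11 to 4.45 CPM in si_GRB2, with 5 of the 7 under 1 CPM in every library or not listed, and their part in the result was not tested. RPL7P1, a pseudogene on the opposite strand within CSF1R, had 42.3% as many reads and a log2 fold change of −0.13 (edgeR adjusted p = 0.0836), and its part in the counts of CSF1R was not tested. None of the 3 limma fits on FPKM called the falls of CSF1R or DDR1, whereas all other alternatives did.

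The upstream sequences of CSF1R are shown because its RefSeq starts (GRCh38.p14) differ in content, and the counts do not tell which was used. The distal start (chr5:150113366-150113615, minus strand) is preceded by a GC box and by an AP-1 motif, TGANTCA, the letters bound by FOS and JUN dimers. The window before the other start (chr5:150086555-150086804, minus strand) holds neither.
CSF1R, distal start: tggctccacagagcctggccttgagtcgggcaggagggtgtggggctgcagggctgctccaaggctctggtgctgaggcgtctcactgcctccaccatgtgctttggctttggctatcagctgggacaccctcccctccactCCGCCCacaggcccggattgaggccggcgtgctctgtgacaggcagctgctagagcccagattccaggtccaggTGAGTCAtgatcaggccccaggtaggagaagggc
CSF1R, other start: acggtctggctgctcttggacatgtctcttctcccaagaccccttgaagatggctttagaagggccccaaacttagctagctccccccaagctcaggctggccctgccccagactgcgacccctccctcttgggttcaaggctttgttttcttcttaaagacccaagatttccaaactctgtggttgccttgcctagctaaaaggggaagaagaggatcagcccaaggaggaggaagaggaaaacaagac

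MST1R, the receptor for macrophage-stimulating protein, and MET, the receptor for hepatocyte growth factor, form a family, and MET recruits GRB2 at its C-terminal docking site. MST1R (ENSG00000164078.13, chromosome 3, minus strand, from 49887002 to 49903873) was at 31.3, 28.2 and 31.0 CPM in si_NC and at 26.2, 27.0 and 26.6 CPM in si_GRB2. The lowest si_NC library lay above the highest si_GRB2 library, and the log2 fold change was −0.18 (SE 0.05, edgeR adjusted p = 0.0123). It was not called by DESeq2 or by the 3 limma fits on FPKM. MET was at 30.9, 33.7 and 32.2 CPM in si_NC and at 31.3, 32.7 and 31.7 CPM in si_GRB2. Its groups overlapped fully, and the 95% interval of its log2 fold change was −0.12 to 0.09.

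TYRO3, AXL and MERTK, the TAM receptors, bind GAS6 and protein S. TYRO3 was at 55.0, 54.9 and 55.5 CPM in si_NC and at 56.2, 56.3 and 55.5 CPM in si_GRB2, with a log2 fold change of 0.02 (95% interval −0.06 to 0.10). MERTK was scarce, at 0.784, 0.746 and 0.820 CPM in si_NC and at 0.437, 0.510 and 0.356 CPM in si_GRB2, from 98 reads in all. The groups did not overlap, and MERTK had the largest fall among the tested receptors, −0.84 on the log2 scale (SE 0.30, 95% interval −1.48 to −0.20, edgeR adjusted p = 0.0436). The call was lost in 10 of 11 alternative fits, including each of the 6 with a library left out.

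**Figure D4:**
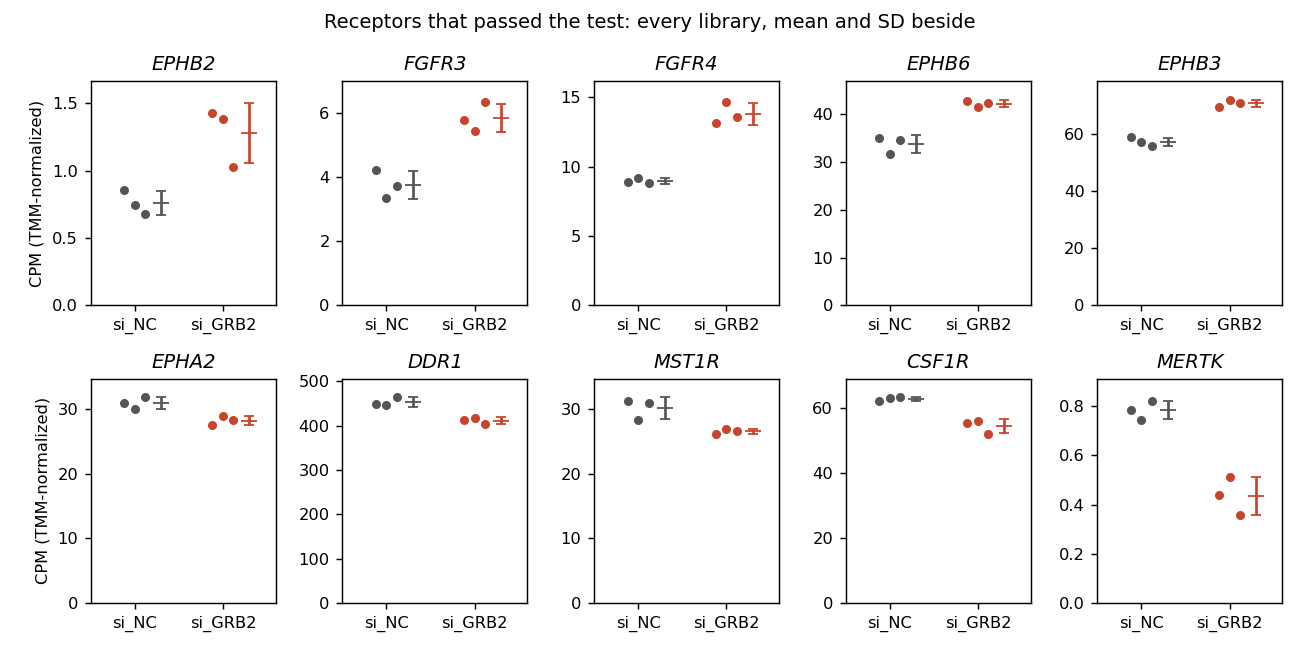
CPM of the 10 receptors that passed the test, 1 point per library, with the mean and SD (n = 3) beside the points and axes that start at 0. In each panel the 3 si_GRB2 points lie on 1 side of the 3 si_NC points, from FGFR4 (8.81 to 9.18 against 13.1 to 14.7 CPM) to DDR1 (446 to 465 against 404 to 418 CPM).

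Insulin and IGF receptors signal through IRS and SHC proteins, which bind GRB2. INSR was at 11.1, 13.7 and 12.5 CPM in si_NC and at 10.3, 11.3 and 10.4 CPM in si_GRB2. The groups overlapped because of si_NC replicate 1, and the log2 fold change of −0.22 (95% interval −0.40 to −0.03) had an edgeR adjusted p of 0.0742. Without that library, INSR passed the test at −0.30. IGF1R was at 10.3, 10.01 and 9.38 CPM in si_NC and at 8.78, 9.43 and 8.77 CPM in si_GRB2, with a 95% interval of −0.32 to 0.04 for its log2 fold change of −0.14 (edgeR adjusted p = 0.259).

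The Wnt-binding receptors RYK and PTK7 and the kinases STYK1 and LMTK2 did not pass the test either. RYK was at 44.6, 42.4 and 45.3 CPM in si_NC and at 42.4, 41.7 and 42.5 CPM in si_GRB2, with overlapping groups and a 95% interval of −0.16 to 0.02. PTK7, a pseudokinase of planar cell polarity, was at 3.64 to 4.92 CPM in si_NC and at 3.12 to 4.22 CPM in si_GRB2, with a log2 fold change of −0.30 (95% interval −0.64 to 0.03), and it passed the test without si_NC replicate 3. STYK1 was at 5.42, 5.49 and 5.53 CPM in si_NC and at 4.81, 4.37 and 4.23 CPM in si_GRB2. Its groups did not overlap, and the log2 fold change was −0.29 (95% interval −0.55 to −0.04, edgeR adjusted p = 0.0777). LMTK2, which acts on serine and threonine despite its family, was at 56.0, 55.2 and 58.1 CPM in si_NC and at 60.0, 60.4 and 61.6 CPM in si_GRB2. The groups did not overlap, and the log2 fold change of 0.10 (95% interval 0.02 to 0.19) had an edgeR adjusted p of 0.052, and LMTK2 passed the test without si_NC replicate 3. LTK, whose groups did not overlap either, was at 0.321 to 0.392 CPM in si_NC and 0.474 to 0.556 CPM in si_GRB2, with a log2 fold change of 0.57 (95% interval −0.16 to 1.31).

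Among 15 receptor tyrosine kinases outside the ERBB family that were not members, 2 had enough reads. LMTK3, a relative of LMTK2, was at 62.0, 64.2 and 61.9 CPM in si_NC and at 99.98, 94.5 and 95.7 CPM in si_GRB2. These values lay far apart, with a log2 fold change of 0.63 (SE 0.04, edgeR adjusted p = 3.22e-09), past both limits. AATK, the other relative, was at 2.39 to 4.81 CPM in si_NC and at 3.75 to 4.45 CPM in si_GRB2.

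The ligands of these receptors were followed through a list of 58 genes, of which 26 had enough reads. Of these, 12 passed the test, with 5 higher and 7 lower, and their median log2 fold change over all 26 was −0.03. These shares of calls stand beside 30.6% of all tested genes, 15.2% higher and 15.5% lower. No ligand passed both limits in edgeR, and in the same fit and in DESeq2 none changed by more than 1.5-fold at an unadjusted p under 0.05. Past these unadjusted limits were FGF22 and FGF7 in edgeR with no filter on low counts, and ANGPT1 without si_NC replicate 2 and without si_GRB2 replicate 3. EFNA1, a ligand of EphA receptors, had the highest level of the tested ligands, 87.0 ± 5.54 FPKM (SD, n = 3) in si_NC, followed by VEGFB at 45.6 ± 1.64 FPKM (SD, n = 3). EFNA1 fell from 229, 233 and 241 CPM to 207, 209.5 and 203 CPM, with a log2 fold change of −0.18 (edgeR adjusted p = 1.74e-04). EFNA5 was lower as well (log2 fold change −0.50, edgeR adjusted p = 8.54e-05), whereas EFNA3 was higher (0.21, edgeR adjusted p = 0.0206). The ephrins of the EphB receptors, EFNB1 and EFNB2, were at 5.10 to 6.95 CPM in si_NC and had log2 fold changes of 0.12 and −0.16 that did not pass the test.

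The ligands of KIT, PDGFRB and FLT1 were measured in these cells while those receptors had few reads. KITLG, the ligand of KIT, was at 124, 127.6 and 119 CPM in si_NC and at 159, 165 and 162 CPM in si_GRB2. KITLG was higher in every si_GRB2 library than in any si_NC library, with a log2 fold change of 0.39 (SE 0.03, edgeR adjusted p = 2.11e-07). KIT had 1 read in all 6 libraries. PDGFB fell from 43.7 ± 1.47 to 32.7 ± 1.604 CPM (SD, n = 3 each), with a log2 fold change of −0.42 (edgeR adjusted p = 6.08e-06). PDGFD, which binds the same receptor, rose from 13.7 ± 0.670 to 16.1 ± 1.15 CPM (SD, n = 3 each), with a log2 fold change of 0.23 (edgeR adjusted p = 0.0207), and PDGFRB had 36 reads. VEGFB, a ligand of FLT1, fell from 112 ± 0.387 to 89.7 ± 2.13 CPM (SD, n = 3 each), with a log2 fold change of −0.32 (edgeR adjusted p = 1.88e-06), and FLT1 had 3 reads. WNT5A, which binds ROR1 and ROR2, with 3 reads and 1 read, and RYK, which was expressed, fell from 24.0 ± 1.35 to 18.9 ± 1.19 CPM (SD, n = 3 each), with a log2 fold change of −0.35 (edgeR adjusted p = 4.42e-04). Among ligands with a mean under 5 CPM over the 6 libraries, FGF1 and GDF15 fell while VEGFC and ANGPT1 rose. EFNA5, KITLG, PDGFB and VEGFB were called in every alternative fit. The falls of EFNA1 and WNT5A were not called by limma on log2(FPKM + 1), and the rises of EFNA3 and PDGFD were not called by DESeq2 or without si_NC replicate 2. EFNA3 was also not called without si_NC replicate 3 or si_GRB2 replicate 1, and PDGFD without si_NC replicate 1 or si_GRB2 replicate 3. FGF1, GDF15 and VEGFC were not called by DESeq2 or without si_NC replicate 2 or si_GRB2 replicate 2, and ANGPT1 was not called without si_GRB2 replicate 2. GDF15 and VEGFC were also lost without si_NC replicate 3 or si_GRB2 replicate 3, and VEGFC with no filter on low counts. Limma on log2(FPKM + 1) called none of PDGFD, FGF1, GDF15, VEGFC and ANGPT1. None of these had an edgeR adjusted p under 0.01.

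The soluble ligands of MET, TYRO3 and IGF1R, and IL34, a ligand of CSF1R, had few reads. Over the 6 libraries, HGF had 1 read, PROS1 2, IGF1 3, GAS6 15, IGF2 15 and IL34 21. CSF1, the other ligand of CSF1R, was at 2.75 to 3.14 CPM in si_NC and 2.74 to 3.13 CPM in si_GRB2. MST1, the ligand of MST1R, was at 1.57 to 2.50 CPM in si_NC and 1.78 to 2.53 CPM in si_GRB2. The groups overlapped for both. Of the FGFs, FGF1 and FGF2 had enough reads, and FGF1 was at 4.78 to 5.06 CPM in si_NC and 3.50 to 3.85 CPM in si_GRB2.

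Among 31 co-receptors and genes that bind, cleave or clear the ligands, 21 had enough reads and 10 passed the test, with 5 higher and 5 lower. Of all tested genes, 30.6% passed, 15.2% higher and 15.5% lower. The median log2 fold change of the 21 was 0.06. IGF2R, IGFBP5, FURIN and GPC1 were called in every alternative fit, whereas limma on log2(FPKM + 1) did not call NRP1, PLXNB1, SDC1, SPINT1 or IGFBP2. SPINT1 was also not called without any 1 of the libraries other than si_GRB2 replicate 3. CD44, a co-receptor of MET, fell from 13.8, 13.6 and 13.8 CPM to 8.19, 8.01 and 7.62 CPM. The groups were far apart, with a log2 fold change of −0.79 (SE 0.08, edgeR adjusted p = 1.12e-06), past both limits. The heparan sulfate proteoglycan GPC1 had a log2 fold change of −0.52, SDC1 one of −0.19, and PLXNB1, a semaphorin receptor that associates with MET, one of −0.20. IGF2R, which clears IGF2, rose from 97.9 ± 1.39 to 124 ± 1.98 CPM (SD, n = 3 each), with a log2 fold change of 0.35 (edgeR adjusted p = 5.35e-07). IGFBP5, an IGF-binding protein, had a log2 fold change of 0.28, the VEGF co-receptor NRP1 and the protease FURIN one of 0.21 each, and the protease inhibitor SPINT1 one of 0.09. IGFBP2, named after its values were seen, was the other gene of this list past both limits, with a log2 fold change of −0.72 (edgeR adjusted p = 0.0018) from 4.10 to 5.14 CPM in si_NC and 2.49 to 3.30 CPM in si_GRB2. The sheddases ADAM10 and ADAM17 had log2 fold changes of 0.06 and −0.0035 that did not pass the test.

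**Figure D5:**
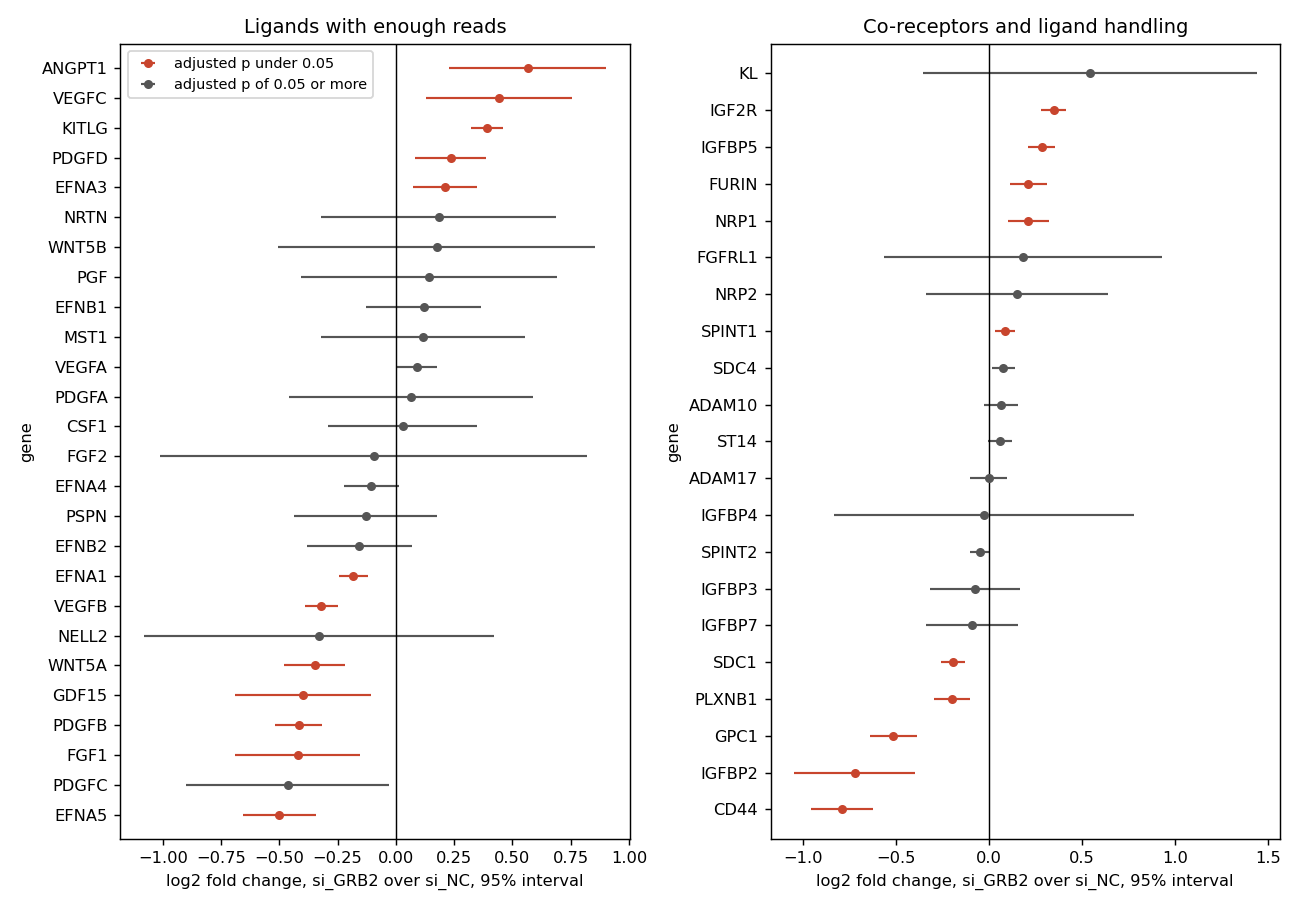
Log2 fold changes with 95% intervals (edgeR, si_GRB2 over si_NC) of the 26 tested ligands (left) and the 21 tested co-receptors and ligand-handling genes (right), red where the adjusted p was under 0.05. Red ligands lie on both sides of 0, from EFNA5 at −0.50 to ANGPT1 at 0.57, and CD44 at −0.79 is the lowest of the right panel.

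Promoter windows of 250 bases were found in RefSeq for 36 of the 39 receptors, with 61 starts, and not for FGFR1, FLT4 and STYK1. GC boxes (GGGCGG, both strands) occurred in at least 1 window of 30 of the 36 receptors, and in 42.6% of the 35116 single windows of all genes. AP-1 motifs (TGANTCA) occurred for 4 receptors and ETS motifs (CCGGAAG) for 2, against 6.57% and 8.52% of all single windows. A receptor with several starts had several chances to hold a motif. Sites of different motifs overlapped in none of the 61 windows. All 14 expressed receptors with a window held a GC box, and so did 16 of the 22 others. The median G or C content was 66.7% for the expressed receptors and 67.4% for the others, with 58% over all windows.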

How the data were processed

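RNA-seq libraries of SK-BR-3 were grouped by their GEO descriptions into si_NC and si_GRB2, with 3 libraries each. Reads were trimmed by the authors with FASTX-Toolkit and mapped with HISAT2 on GRCh38, and only those with a unique position were used. The authors deposited raw counts for each gene, and FPKM that they computed and rounded. The libraries were strand-specific, while the counting tool, the annotation release and the strand setting of the counting are not given in the sources used here.

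TMM factors and CPM were computed in R 4.3.3 with edgeR 4.0.16. The 15801 genes kept by filterByExpr entered its quasi-likelihood test of si_GRB2 against si_NC, without a covariate and with Benjamini-Hochberg adjustment over all of them. A gene passed both limits when it changed by more than 1.5-fold in either direction with an adjusted p below 0.01. Intervals of 95% used the moderated degrees of freedom. Positions came from GENCODE 44 and promoters from RefSeq. On simulated counts the test was checked to recover known changes. Full values were given for receptors that passed the test or were expressed (at least 1 FPKM), and from the other lists each gene with an adjusted p under 0.05 and at least 5 CPM was named. The members and the lists were chosen with earlier results of these data known. As alternatives, the comparison was repeated with DESeq2 1.42.0, with that program's size factors in edgeR, with other filters, with limma 3.58.1 on log2 FPKM (pseudocounts of 1 and 0.1), with a block on the replicate number, and without each library in turn. Precision follows the read counts, which were 24810378 to 28532480 per library.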

Additional observations from a re-analysis of the deposited data

How the results depend on the processing

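Over 336 refits of single receptors, 292 left the receptor on the same side of the threshold, 39 ended a call, 5 added a call and 0 reversed a called direction. DESeq2 called 6 receptors, 7 ligands and 3787 genes, and an adjusted p under 0.01 in edgeR left 6 receptors, 6 ligands and 3236 genes, against 4838 genes at 0.05. Limma on log2(FPKM + 1) called 3 receptors, 5 ligands, 5 co-receptors or ligand-handling genes and 1400 genes, with 79 genes and 0 receptors past both limits. With a pseudocount of 0.1 it called 4 receptors, 5 ligands, 5 co-receptors or ligand-handling genes and 1534 genes (927 higher, 607 lower), with 144 genes and 0 receptors past both limits. With a mean of at least 1 FPKM it called 3 receptors, 9 ligands, 5 co-receptors or ligand-handling genes and 2689 genes (1702 higher, 987 lower), with 96 genes and 0 receptors past both limits. At an unadjusted p under 0.05 and 1.5-fold, limma called 2 receptors (FGFR3 and FGFR4) with a pseudocount of 0.1 and 0 in the other FPKM fits. The median log2 fold change of all genes was 0.024 with a pseudocount of 1 and 0.043 with 0.1. It was 0.036 with a mean of at least 1 FPKM, against 0.0019 in edgeR. The part of this shift in the calls of limma, and why limma on FPKM called fewer genes, was not tested. With each library left out in turn, 7 to 10 receptors passed the test and 1 to 2 passed both limits, as did 7 to 11 ligands the test. The lowest ligand count was without si_NC replicate 2.

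The sources used here do not say whether libraries with the same replicate number were paired. The deviations of same-numbered libraries correlated at 0.232, −0.0948 and 0.0804, and not every library correlated best with its own number. Deviations within such small groups depend on each other, so these correlations cannot decide whether the libraries were paired. With the replicate number as a block, 9 receptors passed the test, INSR was gained, and EPHA2 and MERTK were lost. The same block left 4807 genes passing the test. The log2 fold change of GRB2 was −2.18 to −1.91 in 14 alternatives. Depth limits the receptors with few reads, such as MERTK and EPHB2.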

Other observations

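Several receptor genes lie close to each other in GRCh38, and their values are given side by side. LTK and TYRO3 on chromosome 15 are 43788 bases apart, and their log2 fold changes were 0.57 and 0.02, of which neither passed the test. CSF1R fell by 0.21 on the log2 scale, while PDGFRB, 467 bases away, had 36 reads over the 6 libraries. EPHB6 and EPHA1 on chromosome 7 are 519195 bases apart, with log2 fold changes of 0.32 and 0.05. KIT lies 337698 bases from KDR and 359022 bases from PDGFRA on chromosome 4, and the 3 genes had 1, 3 and 2 reads.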
